A study of Mus musculus with 2 samples.

Results

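The G1/S-rich cells are mouse embryonic stem cells in which the transcripts of 8 genes used at the start of DNA replication take up a large share of all transcripts counted. They were picked by a rule on measured values. Cells had to pass a minimum of unique molecular identifiers (UMIs, each standing for 1 captured transcript), and the shallowest cell to pass it had 23504. The share of UMIs in Ccne1, Ccne2, Cdc6, Cdt1, Mcm5, Mcm6, Pcna and Slbp was then computed per cell. Cells at or above the 75th percentile of that share in DMSO cells, 0.189% of UMIs, were kept. The rule kept 338 of the 1553 cells of the series, 147 of 742 Idoxuridine cells and 191 of 811 DMSO cells. The other cells of that depth numbered 501 in Idoxuridine and 573 in DMSO, and 94 Idoxuridine and 47 DMSO cells were too shallow.

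The study asked how Idoxuridine, an iodinated thymidine analogue that cells build into new DNA and that the submitters call an enhancer of expression noise, acts on E14 cells, a male embryonic stem cell line whose strain label reads C57BL/6. The Idoxuridine library came from cells given 24 h of Idoxuridine at 10 µM per the treatment label (a protocol field gives 10 mM), and the DMSO library from cells given 24 h of DMSO, the solvent. Both were grown without feeder cells in 2i/LIF medium, which holds stem cells in the naive state with 2 kinase inhibitors and leukaemia inhibitory factor. Each treatment gave 1 droplet library, so nothing here is a test between treatments. Every value below describes these 2 libraries, and intervals in parentheses are 95% intervals that cover counting error only.

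A cell that leaves G1 loads the MCM helicase onto replication origins with the help of Cdc6 and Cdt1, and cyclin E (Ccne1 and Ccne2) with its kinase then triggers replication. Pcna is the clamp that keeps polymerases on DNA, and Slbp binds the messenger RNAs of replication-dependent histones. These genes are transcribed together by E2F factors, which are held back by retinoblastoma proteins until cyclin-dependent kinases act. Embryonic stem cells have a short G1 phase and express much of this programme through most of the cycle.

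The sequences below show the E2F-type element TTTNGCGC as it stands in the promoters of the 2 MCM genes that the rule used, because E2F factors are known to bind elements of this kind. The sequences are those of RefSeq on GRCm38.p6, read on the strand of the gene, 5′ to 3′, and capitals mark every match on either strand. Mcm6, a subunit of the helicase, has matches that begin at positions -110 and -47 from its start on the gene's strand and at -106 on the other strand, with the window at chr1:128359725-128359835, minus strand. Mcm5, another subunit, has matches at -153 on its own strand and -149 on the other, with the window at chr8:75109336-75109387, plus strand.
Mcm6: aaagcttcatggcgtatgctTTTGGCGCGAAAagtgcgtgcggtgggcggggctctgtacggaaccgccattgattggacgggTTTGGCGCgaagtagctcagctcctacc
Mcm5: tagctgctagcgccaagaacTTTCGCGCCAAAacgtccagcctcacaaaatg
The matches at -110 and -106 overlap each other, as do those at -153 and -149. Of the 7 rule genes with a promoter in the RefSeq table, 3 held the element between 250 bases before and 50 after the start, the third being Cdt1 at position 32. Ccne2 had no entry. Of all 32851 promoters, 452 (1.38%) held it, and counted per gene 424 of 27025 (1.57%) did. It was found in 4 of 18 promoters of other licensing and firing genes, 6 of 17 of other early G1/S genes, 4 of 21 of fork and polymerase genes and 4 of 48 of G2/M genes. It was in none of 33 promoters of p53 targets, 18 of naive and 12 of general pluripotency genes. A match is a description of these letters and not evidence of binding.

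The rule kept 22.7% of the deep Idoxuridine cells (exact binomial interval 19.5 to 26.1) and, by its construction, 25% of the deep DMSO cells. Within the set, the median share of UMIs in the 8 genes was 0.225% in Idoxuridine and 0.221% in DMSO. The Idoxuridine cells nearest the threshold lay at 0.189425% inside and 0.189356% outside, and the DMSO cells at 0.189445% inside and 0.189418% outside. The share therefore ran on without a gap at the threshold, and the set is a range of a score rather than a separate cell type. In Idoxuridine, 3 cells exceeded the highest DMSO cell.

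**Figure D1:**
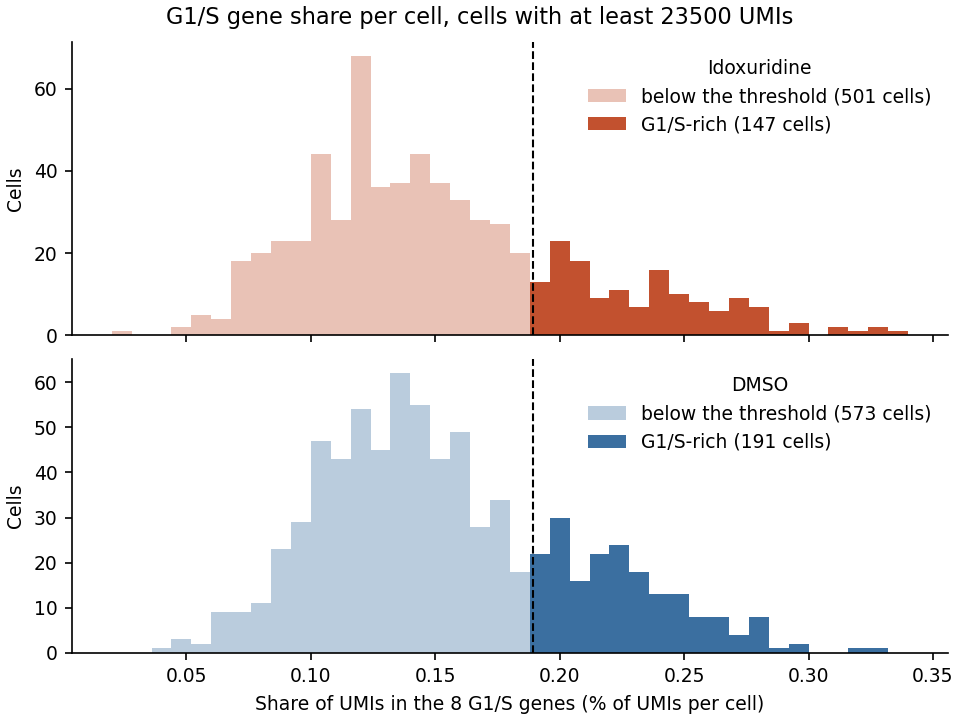
Histogram of the share of UMIs in the 8 G1/S genes (x axis, % of UMIs per cell) for Idoxuridine cells (upper panel) and DMSO cells (lower panel) above the depth minimum; the y axis counts cells and the dashed line is the threshold at 0.189%. Dark bars are the 147 Idoxuridine and 191 DMSO cells kept, and neither histogram has a gap at the line.

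The set held 5478973 UMIs in Idoxuridine and 8117937 in DMSO, with medians per cell of 35517 UMIs (range 23885 to 76319) in Idoxuridine and 39055 UMIs (range 23665 to 110482) in DMSO. Both sides of the set were shallower than the other cells, whose medians were 41683 UMIs in Idoxuridine and 49174 in DMSO. The median mitochondrial share was 2.66% in Idoxuridine and 2.44% in DMSO, and no cell of the set was above 5%. Nuclear-retained RNAs took a median of 0.345% of UMIs in Idoxuridine and 0.234% in DMSO cells of the set, against 0.516% in Idoxuridine and 0.342% in DMSO among the other cells. No barcode of the set was shared between the libraries.

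The G1/S label was set against genes that the rule did not use. The other early G1/S genes (26 genes, among them E2f1) summed to 4663 UMIs per 1000000 (CPM) in Idoxuridine cells of the set against 3400 CPM in the other Idoxuridine cells, and to 4752 CPM against 3635 CPM in DMSO. Rrm2, a subunit of the ribonucleotide reductase that makes deoxynucleotides in S phase, had 733 CPM in the set against 411 CPM in the other Idoxuridine cells, and 580 CPM against 330.0 CPM in DMSO. The 18 mid S phase genes, Rrm2 among them, also summed higher in the set. They had 2818 CPM against 2049 CPM in Idoxuridine and 2817 CPM against 2075 CPM in DMSO. These sums therefore do not separate G1/S cells from S phase cells. The 55 G2/M genes summed lower in the set, to 9798 CPM against 12902 CPM in Idoxuridine and 9207 CPM against 12449 CPM in DMSO. Their transcripts were thus fewer but far from absent. Pou5f1, the core pluripotency factor, was counted in every cell of the set in both libraries at a common depth.

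The cells selected in the 2 libraries carried closely similar amounts of the selecting genes together, 2320.0 CPM in Idoxuridine and 2248 CPM in DMSO over the 8 genes, with 1278 CPM in Idoxuridine against 1302 CPM in DMSO in the other cells. The 8 genes were divided differently within that sum, which the rule does not fix. As they chose the cells, the values that follow describe the set and support nothing.

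Among the origin licensing factors, Cdc6, the ATPase that loads the helicase, had 70.5 CPM (63.6 to 77.8) in Idoxuridine and 88.4 CPM (82.1 to 95.2) in DMSO, a log2 ratio of -0.33 (-0.51 to -0.15). Cdt1, its partner in loading, had 199 CPM in Idoxuridine and 199.7 CPM in DMSO. Thus Cdc6 was the rule gene lying furthest below DMSO and its partner was level with it. Of the helicase subunits, Mcm5 had 544 CPM (525 to 564) in Idoxuridine and 526 CPM (510.0 to 542) in DMSO. Mcm6 had 386 CPM (370.1 to 403) in Idoxuridine against 408 CPM (394 to 422) in DMSO. At a common depth, set at that minimum, cells of the set had 2 to 20 Mcm6 UMIs in Idoxuridine and 3 to 19 in DMSO, with a median of 9 in each, so the cells overlapped almost entirely.

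Cyclin E1 (Ccne1) had 259 CPM (246 to 273) in Idoxuridine and 245 CPM (235 to 256) in DMSO, and cyclin E2 (Ccne2) 38.0 CPM (33.0 to 43.5) in Idoxuridine against 33.3 CPM (29.4 to 37.5) in DMSO. Ccne2 overlaps Ints8 on the other strand. Pcna had 119.7 CPM (110.7 to 129) in Idoxuridine and 134 CPM (126 to 142) in DMSO, a log2 ratio of -0.17. Slbp was the rule gene lying furthest above DMSO, with 703 CPM (680.5 to 725) in Idoxuridine and 613 CPM (596 to 630.4) in DMSO, a log2 ratio of 0.20 (0.14 to 0.26). Its median per cell was 16 UMIs in Idoxuridine and 14 in DMSO, and 19.0% of Idoxuridine cells exceeded the 90th percentile of DMSO cells, against 7.85% of DMSO cells. The level ratios of Ccne1 (0.08) and Mcm5 (0.05) turned below 0 under both other scalings given next, and the median of the 8 genes, 0.02, became -0.13 under TMM scaling.

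Across the transcriptome of the set, 6791 genes had at least 200 UMIs over both libraries. A gene was counted as higher or lower when its CPM differed by at least 0.5 log2 with Poisson intervals that did not overlap. By that rule 667 genes (9.82%) were higher and 328 (4.83%) lower in Idoxuridine, and 58.6% of genes lay within 0.25 log2. The median log2 ratio of all genes was 0.03. TMM scaling moved every ratio by -0.15 and median-of-ratios scaling by -0.16, which turned the split into 401 higher and 687 lower, and 396 higher and 720 lower. Higher genes made up 67.0% of those counted in CPM, 36.9% with TMM and 35.5% with median-of-ratios scaling, so the balance of higher and lower genes depends on the scaling. Ratios near the shift should be read relative to it. Counts of list members are to be read against the shares over all genes, 9.82% higher and 4.83% lower in CPM, or 5.9% higher and 10.1% lower with TMM.

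In CPM the replication genes beyond the rule genes lay close to DMSO within the set, and a few of them passed the fold on the lower side under TMM scaling. Of 25 other licensing and firing genes, 24 had 200 UMIs and 0 were counted in either direction. Their median log2 ratio was 0.02, against 0.07 over the 9862 genes with at least 50 UMIs, the minimum for a list median, and it was -0.14 under TMM scaling. Their summed level was 3709 CPM in Idoxuridine and 3885 CPM in DMSO. The members lying furthest from 0 went in opposite directions. Orc2, a subunit of the origin recognition complex, had 119.7 CPM (110.7 to 129) in Idoxuridine and 89.9 CPM (83.5 to 96.7) in DMSO, whereas Orc5 of the same complex had 27.2 CPM (23.0 to 31.9) in Idoxuridine against 36.2 CPM (32.2 to 40.6) in DMSO. Mcm3, a helicase subunit, had 299.5 CPM (285 to 314) in Idoxuridine and 391 CPM (378 to 405) in DMSO, a log2 ratio of -0.39. Gins1, part of the complex that activates the helicase, had 40.7 CPM in Idoxuridine and 52.7 CPM in DMSO. None of these 4 reached the fold used in CPM. With TMM scaling 4 members of the list were lower, Orc5 (-0.57), Mcm3 (-0.54), Gins1 (-0.53) and Gins2, another subunit of that complex named after its value was seen, and 0 were higher.

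Of the 26 other early G1/S genes, 23 with 200 UMIs, 0 were counted higher and 1 lower. Their median was -0.01, and with TMM scaling 2 were lower. The lower gene in CPM was Wdr76, at 30.8 CPM (26.4 to 35.9) in Idoxuridine and 44.1 CPM (39.6 to 48.9) in DMSO, a log2 ratio of -0.52. E2f1, an activating factor of the G1/S programme, had 114 CPM (105 to 123) in Idoxuridine and 81.5 CPM (75.5 to 88.0) in DMSO, at 0.48 just under the fold. Clspn, the adaptor of the replication checkpoint, had 72.1 CPM in Idoxuridine and 69.97 CPM in DMSO. Of 31 cyclins, kinases and inhibitors of G1, 21 had 200 UMIs. Among these 1 was higher (Cdkn2d, an inhibitor of Cdk4 and Cdk6, 0.55) and 1 lower (Mycn, a growth-promoting transcription factor, -0.53). The median of the 31 was 0.06. Under TMM scaling 0 were higher and 2 lower, with a median of -0.09. Ratios of the 31 ran from -0.53 to 2.77, and the member at 2.77 had too few UMIs to be counted. In the other cells 32 members had 200 UMIs, and 6 were higher and 0 lower. Cyclin D1 (Ccnd1) had 185 CPM in Idoxuridine and 204 CPM in DMSO. Cdkn1a, the p21 inhibitor that p53 induces, had 209 CPM (197 to 221) in Idoxuridine against 199 CPM (189.7 to 209) in DMSO.

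The 24 fork and polymerase genes had 0 members counted in either direction and a median of -0.0016. Pold2, a subunit of polymerase delta, had 97.1 CPM (89.0 to 106) in Idoxuridine and 127 CPM (119.6 to 135) in DMSO. Pola1, the catalytic subunit of the priming polymerase, had 36.5 CPM in Idoxuridine and 49.9 CPM in DMSO, and Timeless, which protects forks, had 134 CPM in Idoxuridine against 111 CPM in DMSO. The 3 genes thus lay on both sides of DMSO. With TMM scaling Pola1 (-0.60) and Pold2 (-0.54) were counted lower. Among 18 mid S phase genes, 17 with 200 UMIs, 0 were higher and 1 lower, the mitochondrial ribosome gene Mrpl36 (-0.57). Their median was -0.06, and 4 were lower with TMM scaling. Rrm2, described above, lay above DMSO but under the fold, at 733 CPM (711 to 756) in Idoxuridine and 580 CPM (564 to 597) in DMSO, a log2 ratio of 0.34 (0.28 to 0.40).

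Replication-dependent histone transcripts mostly lack poly(A) tails and are caught poorly by this method, and 8 of 53 genes had 50 UMIs and 4 had 200. Of these, 2 were higher, Hist1h2ap (103 CPM in Idoxuridine and 67.4 CPM in DMSO, 0.61) and the linker histone gene Hist1h1e (40.9 CPM in Idoxuridine against 27.1 CPM in DMSO, 0.59). With TMM scaling neither was counted (0.45 for Hist1h2ap and 0.44 for Hist1h1e). The linker histone gene Hist1h1b had 141 CPM in Idoxuridine and 153 CPM in DMSO. The remaining gene of the 4, the linker histone gene Hist1h1a, had a log2 ratio of -0.48 and was not counted in CPM. It was counted lower with TMM scaling (-0.63) and with median-of-ratios scaling (-0.64). Near-identical copies make the counts of single histone genes uncertain, and Hist1h1e overlaps Hist1h2be on the same strand.

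The 55 G2/M genes, 54 with 200 UMIs, had 3 higher and 0 lower members. Their median of 0.14 became -0.01 under TMM scaling, and their sums are given above. Cenpf, a kinetochore protein that builds up in G2, had 185 CPM (174 to 196) in Idoxuridine and 87.8 CPM (81.5 to 94.5) in DMSO, a log2 ratio of 1.07 (0.93 to 1.21). The other 2 were Fam64a (0.68) and the spindle gene Nusap1 (0.61), and of the 3 Cenpf alone was counted with TMM scaling. Among the defining G2/M markers, Ccnb1 had 394 CPM in Idoxuridine and 348 CPM in DMSO, Cdc20 348 CPM in Idoxuridine against 316 CPM in DMSO, Plk1 90.5 CPM in Idoxuridine against 73.7 CPM in DMSO, and Aurka 104 CPM in Idoxuridine against 92.5 CPM in DMSO. None of these 4 was counted. What the remaining G2/M transcripts contribute to the ratios of other genes was not tested.

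Targets of p53, the factor that DNA damage activates, formed a group with many higher members. Of 36 measured genes, 26 with 200 UMIs, 12 were higher and 1 lower, against 9.82% and 4.83% of all genes, and the median was 0.40 (0.24 under TMM scaling, 0.42 in the other cells). With TMM scaling 9 were higher and 1 lower. Their sum was 3066 CPM in Idoxuridine and 2443 CPM in DMSO, and at a common depth 78.2% of Idoxuridine cells exceeded the DMSO median of 54 UMIs. Perp, a membrane protein gene of p53-dependent cell death, had 51.8 CPM (46.0 to 58.2) in Idoxuridine and 13.3 CPM (10.9 to 16.1) in DMSO, a log2 ratio of 1.96 (1.64 to 2.30). Ddit4, an inhibitor of mTOR signalling, had 78.3 CPM in Idoxuridine against 24.9 CPM in DMSO (log2 ratio 1.65). Bbc3, which encodes the death-promoting protein Puma, had 105 CPM (97.1 to 114) in Idoxuridine against 37.9 CPM (33.8 to 42.4) in DMSO, a log2 ratio of 1.48, with a UMI in 84.3% of Idoxuridine and 52.4% of DMSO cells. In 17 Idoxuridine cells Bbc3 exceeded the highest DMSO cell.

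Mdm2, the ubiquitin ligase that turns p53 over, had 166 CPM (155 to 177) in Idoxuridine and 88.2 CPM (81.9 to 94.9) in DMSO, a log2 ratio of 0.91, and Plk2, a kinase gene induced by p53, had 76.1 CPM in Idoxuridine against 33.3 CPM in DMSO (log2 ratio 1.19). These genes and Cdkn1a are all p53 targets, yet the Cdkn1a ratio was 0.07 (-0.04 to 0.18) and turned to -0.09 under TMM scaling. The lower member was Tigar (-0.98), named after its value was seen.

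Repair genes showed no common direction. Of 37 strand break repair and checkpoint genes, 30 with 200 UMIs, 2 were higher and 2 lower (6.67% each, beside 9.82% and 4.83% of all genes), with a median of 0.10 (-0.06 under TMM scaling). With TMM scaling 0 were higher and 3 lower. Of the higher members Brca2, which acts in the repair of broken DNA by recombination, had 103 CPM (95.1 to 112) in Idoxuridine and 73.0 CPM (67.3 to 79.2) in DMSO. Hus1 and Rad1, which encode members of the 9-1-1 clamp that signals stalled forks, were the lower members, Hus1 with 13.1 CPM (10.3 to 16.5) in Idoxuridine against 22.2 CPM (19.05 to 25.7) in DMSO and Rad1 with 46.4 CPM (40.8 to 52.4) in Idoxuridine against 76.6 CPM (70.7 to 82.9) in DMSO. Their log2 ratios were -0.75 and -0.72. Of 24 base excision repair genes, 21 with 200 UMIs, 0 were counted in CPM and 1 was lower with TMM scaling. Their median was 0.01 (-0.15 under TMM scaling), and Parp1 had 349.9 CPM in Idoxuridine and 348 CPM in DMSO.

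The enzymes of nucleotide metabolism, which also handle Idoxuridine, had members on both sides of DMSO. Of 32 nucleotide metabolism genes, 28 with 200 UMIs, 3 were higher and 2 lower, with a median of -0.13, and with TMM scaling 2 were higher and 6 lower. Dctd, the deaminase that makes the precursor of thymidylate, had 133 CPM (124 to 143) in Idoxuridine and 69.97 CPM (64.3 to 76.0) in DMSO, a log2 ratio of 0.93. Impdh1, an enzyme of guanine nucleotide synthesis, had 80.9 CPM in Idoxuridine against 45.6 CPM in DMSO (log2 ratio 0.83), and the nucleotidase gene Nt5c 33.6 CPM in Idoxuridine against 22.0 CPM in DMSO (log2 ratio 0.61). Upp1, which splits uridine and related nucleosides, was lower, with 269.9 CPM (256 to 284) in Idoxuridine and 471 CPM (456 to 486) in DMSO, a log2 ratio of -0.80. The other lower gene was the uridine-cytidine kinase gene Uck2 (-0.58), named after its value was seen.

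Thymidine kinase 1 (Tk1), which phosphorylates thymidine and its halogenated analogues, had 112 CPM (103 to 121) in Idoxuridine and 144 CPM (136 to 153) in DMSO, a log2 ratio of -0.37. Thymidylate synthase (Tyms) had 177 CPM (166 to 188) in Idoxuridine against 237 CPM (227 to 248) in DMSO, a ratio of -0.42. Both lay below DMSO by less than the fold used in CPM, and both were counted lower with TMM scaling (-0.52 for Tk1 and -0.58 for Tyms) and with median-of-ratios scaling. At a common depth, 9 Idoxuridine cells had no Tyms UMI and no DMSO cell lacked one.

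**Figure D2:**
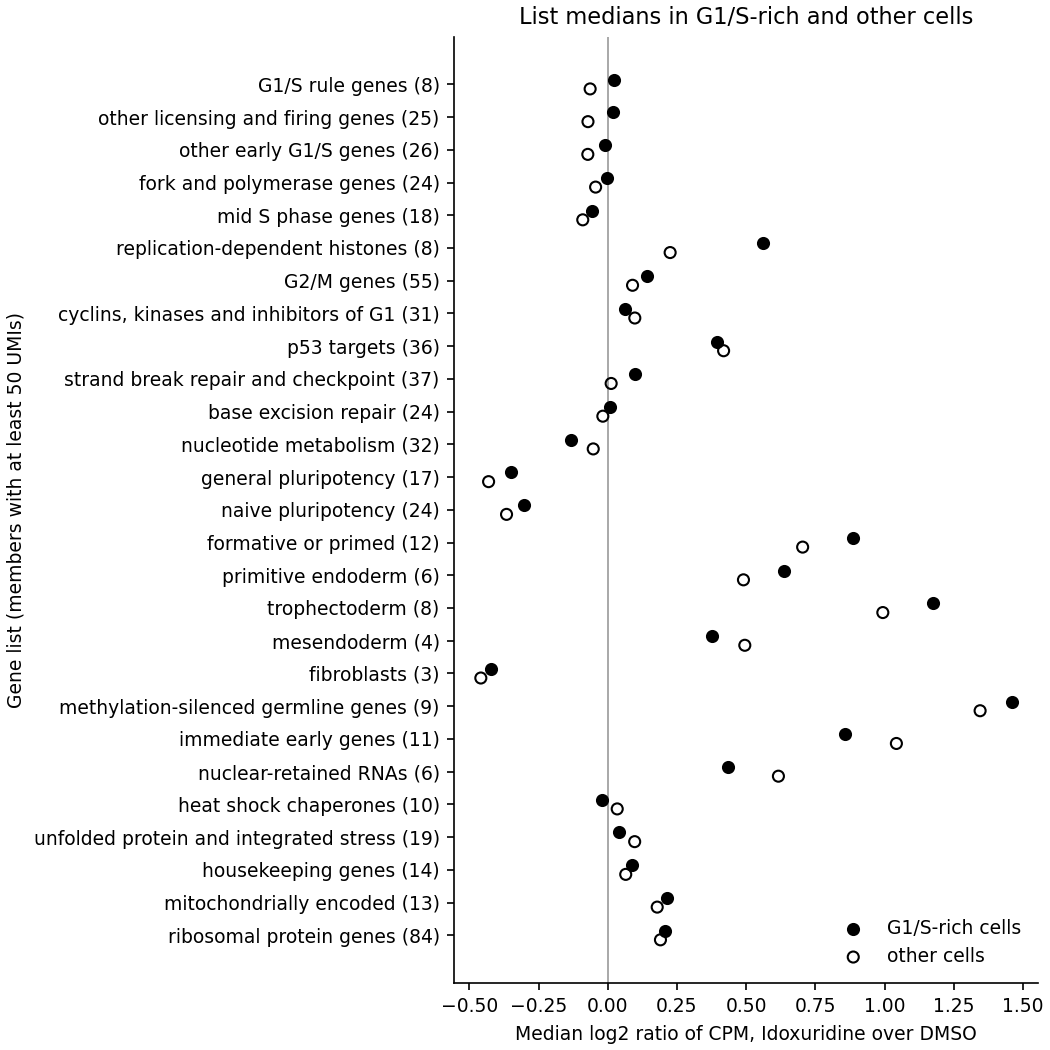
Median log2 ratio of CPM, Idoxuridine over DMSO (x axis), for each gene list (y axis, with the number of members with at least 50 UMIs), in G1/S-rich cells (filled circles) and the other cells (open circles); the grey line is a ratio of 0. The replication lists lie near 0 in both sets of cells, and the pluripotency lists lie below it, at -0.35 and -0.30 in G1/S-rich cells.

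Pluripotency genes had lower summed levels in Idoxuridine. Of 17 general pluripotency genes, 2 were higher and 6 lower, with a median of -0.35 (-0.50 under TMM scaling, -0.43 in the other cells), and of 24 naive pluripotency genes, 22 with 200 UMIs, 4 were higher and 7 lower, with a median of -0.30. Over all genes 9.82% were higher and 4.83% lower. With TMM scaling 1 general gene was higher and 9 were lower, and 4 naive genes were higher and 9 lower. The general list summed to 4486 CPM in Idoxuridine and 5555 CPM in DMSO, the naive list to 4603 CPM in Idoxuridine against 6457 CPM in DMSO. Per cell at a common depth, the naive list gave a median of 104 UMIs in Idoxuridine and 154 in DMSO, and 6.80% of Idoxuridine cells exceeded the DMSO median. Most Idoxuridine cells thus lay below the middle of the DMSO cells, although the ranges, 42 to 216 in Idoxuridine and 98 to 215 in DMSO, overlapped.

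Sox2, a core transcription factor, had 173 CPM (162 to 184) in Idoxuridine and 282 CPM (270.3 to 294) in DMSO, a log2 ratio of -0.71. Nanog, another, had 241 CPM (228 to 254) in Idoxuridine against 357 CPM (344 to 371) in DMSO, a ratio of -0.57. Pou5f1 had 1556 CPM (1523 to 1589) in Idoxuridine and 1968 CPM (1938 to 1999) in DMSO, and its ratio of -0.34 stayed under the fold in CPM. With TMM scaling Pou5f1 was at -0.49 and not counted, and with median-of-ratios scaling it was counted lower (-0.501). Its median per cell was 36 UMIs in Idoxuridine and 45 in DMSO, and 49.7% of Idoxuridine cells lay below the 10th percentile of DMSO cells. For Sox2 that share was 40.1%.

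Of naive genes, Tcl1, which enhances Akt signalling, had 40.7 CPM (35.5 to 46.4) in Idoxuridine and 145 CPM (136 to 153) in DMSO, a log2 ratio of -1.83. Spp1, which encodes osteopontin, had 334 CPM (319 to 350) in Idoxuridine against 899 CPM (878 to 919) in DMSO, a ratio of -1.43. Its median per cell was 6 UMIs in Idoxuridine and 20 in DMSO, and 72.1% of Idoxuridine cells lay below the 10th percentile of DMSO cells. Zfp42 (Rex1), a marker of the naive state, had 722 CPM in Idoxuridine against 894 CPM in DMSO (log2 ratio -0.31). Other members of the naive list were higher, namely Dppa3, Tex19.1 (1.94), Fgfbp1 and Sox15, the last named after its value was seen. Sall4 and Lin28a, an RNA-binding protein gene named after its value was seen, were the higher members of the general list (0.76 and 0.62).

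Dppa3, a maternal factor that shields DNA methylation in the zygote, had 98.0 CPM (89.9 to 107) in Idoxuridine and 4.19 CPM (2.90 to 5.85) in DMSO, a log2 ratio of 4.55 (4.05 to 5.09). It had a UMI in 54.9% of Idoxuridine and 6.71% of DMSO cells of the set at a common depth. Dazl, which germ cells use to regulate translation and whose promoter is methylated in somatic cells, had 87.1 CPM (79.4 to 95.2) in Idoxuridine against 6.78 CPM (5.10 to 8.82) in DMSO, a log2 ratio of 3.68. Dazl had a UMI in 46.6% of Idoxuridine and 12.2% of DMSO cells, so both genes had a UMI in a larger share of Idoxuridine cells. A cell with 0 UMIs at this depth may still express them, and the part of free RNA in these shares was not measured. Phlda2, an imprinted gene that limits placental growth, had 56.0 CPM (49.9 to 62.7) in Idoxuridine and 2.46 CPM (1.505 to 3.805) in DMSO. Ceacam10 (4.44) and the germ cell gene Tex15 (3.21) followed, and Ceacam10 has close sequence relatives.

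Of 9 measured members of the list of germline genes silenced by methylation (5 with 200 UMIs), 3 were higher and 0 lower, Dazl and the chromosome axis genes Sycp3 (34.3 CPM in Idoxuridine and 12.3 CPM in DMSO) and Hormad1 (74.5 CPM in Idoxuridine against 27.1 CPM in DMSO). At the other end lay Lefty1 and Lefty2, secreted inhibitors of Nodal signalling. Lefty1 had 6.21 CPM (4.30 to 8.67) in Idoxuridine and 39.5 CPM (35.3 to 44.1) in DMSO, a log2 ratio of -2.67, and Lefty2 had 23.4 CPM (19.5 to 27.8) in Idoxuridine against 92.1 CPM (85.7 to 99.0) in DMSO, a ratio of -1.98. The 2 are neighbours of similar sequence, so reads may be split between them. Kit, the stem cell factor receptor, had 8.03 CPM (5.84 to 10.8) in Idoxuridine against 30.9 CPM (27.2 to 35.0) in DMSO, a ratio of -1.94.

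Markers of other cell types that embryonic stem cells can turn into were mixed, with some members higher and most rare or not counted. Among 12 formative or primed genes, 6 with 200 UMIs, 4 were higher and 0 lower (Cldn6, Dnmt3a, Etv4 and Sox4), the median was 0.89, and the list summed to 468 CPM in Idoxuridine and 327 CPM in DMSO. Of 8 trophectoderm genes, 4 with 200 UMIs, 2 were higher, Cdx2 (26.8 CPM in Idoxuridine and 11.8 CPM in DMSO) and Tfap2c (75.6 CPM in Idoxuridine against 33.6 CPM in DMSO), while the defining marker Elf5 was at 0 UMIs in both libraries and Eomes had 4.56 CPM in Idoxuridine against 6.78 CPM in DMSO. Of 18 primitive endoderm genes 6 were measured, 3 had 200 UMIs and 1, the collagen chaperone gene Serpinh1 (99.1 CPM in Idoxuridine against 27.0 CPM in DMSO), was higher, while Sparc, a matrix protein gene (-0.11), and the laminin gene Lamc1 (-0.26) were not counted. The defining markers of that layer were near 0, Gata6 at 0.913 CPM in Idoxuridine and 0 in DMSO and Sox17 at 1.10 CPM in Idoxuridine against 0.123 CPM in DMSO. The sums of these lists were 367 CPM in Idoxuridine and 223 CPM in DMSO for trophectoderm and 546 CPM in Idoxuridine against 477 CPM in DMSO for primitive endoderm.

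Of 4 measured mesendoderm genes, Sp5, a target of Wnt signalling, was higher (216 CPM in Idoxuridine and 152 CPM in DMSO), though not with TMM scaling. Only 3 of 16 fibroblast genes were measured, and Vim (434 CPM in Idoxuridine against 675 CPM in DMSO) was the lower one. Fibroblast genes summed to 613 CPM in Idoxuridine and 879.8 CPM in DMSO, Postn was at 0 in both, and Col1a1 had 1.64 CPM in Idoxuridine and 0 in DMSO. The part of other cell types in the ratios was not tested.

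Stress and general expression lists gave a mixed picture. Of 11 immediate early genes, 5 with 200 UMIs, 2 were higher, Jund (303.5 CPM in Idoxuridine and 144 CPM in DMSO) and Junb (52.2 CPM in Idoxuridine against 28.8 CPM in DMSO), and Ier2 was lower (168 CPM in Idoxuridine against 302 CPM in DMSO). Nuclear-retained RNAs summed to 3967 CPM in Idoxuridine and 2615 CPM in DMSO, with Malat1 at 2967 CPM (2921 to 3013) in Idoxuridine against 1645 CPM (1617 to 1673) in DMSO, and the part of nuclear RNA content in the other ratios was not tested. Of 84 ribosomal protein genes 9 were higher and 0 lower, close to the 9.82% of all genes, with a median of 0.21 (3 higher and a median of 0.05 under TMM scaling). Of 13 mitochondrially encoded genes, 12 with 200 UMIs, 3 were higher, with a median of 0.22 (0.06 under TMM scaling). Of 14 housekeeping genes 4 were higher, 2 with TMM scaling, among them Actg1, a cytoplasmic actin (4201 CPM in Idoxuridine and 2586 CPM in DMSO). Of 10 heat shock chaperone genes, 9 with 200 UMIs, 0 were higher and 1, Hspb1, lower (509 CPM in Idoxuridine against 762 CPM in DMSO). Of 19 unfolded protein and integrated stress genes, 18 with 200 UMIs, 4 were higher, with a median of 0.04 (1 higher, 2 lower and a median of -0.11 under TMM scaling).

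Most level ratios in the set resembled those of the other cells. In the other cells 9905 genes had 200 UMIs, and 1724 (17.4%) were higher and 456 (4.6%) lower. Those cells held more UMIs than the set, 23246979 in Idoxuridine and 31761654 in DMSO. More genes pass the minimum there and the intervals are narrower. The numbers of genes counted in the set and in the other cells therefore do not compare the size of the response. Of the set's 667 higher genes, 508 (76.2%) were also counted higher in the other cells, which is 29.5% of the list there. Of its 328 lower genes, 215 (65.5%) were lower there, 47.1% of that list, and 0 genes were counted in opposite directions. The ratios of 87.3% of the 6791 genes lay within 0.25 log2 of each other. Across these genes Pearson's r was 0.91, given as a description because both ratios come from the same 2 libraries and genes are not independent replicates.

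A ratio was taken as differing between the set and the other cells when the difference was at least 0.5 log2 and the intervals of the 2 ratios were separate. This held for 21 genes (0.309%) with a higher and 38 (0.56%) with a lower ratio in the set. The genes that follow are those with the largest differences in each direction. Prc1, for example, rests on 340 UMIs in Idoxuridine and 246 in DMSO cells of the set, and the difference between set and other cells has no replicate.

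The largest difference in the first group was that of Prc1. This gene, which bundles microtubules in the dividing cell's midzone, had 62.1 CPM (55.6 to 69.0) in Idoxuridine and 30.3 CPM (26.6 to 34.3) in DMSO within the set, with 117 CPM in Idoxuridine against 95.6 CPM in DMSO in the other cells. Its log2 ratios were 1.03 (0.79 to 1.28) in the set and 0.30 (0.22 to 0.37) in the other cells, a difference of 0.74 (0.49 to 0.99). It overlaps Rccd1 on the other strand. Another gene of cell division among the 8, the centromere protein gene Cenpl, had ratios of 0.85 in the set and 0.16 in the other cells. The DMSO cells of the set held the lowest level of both genes, since Cenpl had 26.3 CPM in Idoxuridine and 14.5 CPM in DMSO within the set, with 36.5 CPM in Idoxuridine against 32.6 CPM in DMSO in the other cells.

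Trib3, a pseudokinase gene of the integrated stress response, had 44.5 CPM (39.1 to 50.5) in Idoxuridine and 30.2 CPM (26.5 to 34.2) in DMSO within the set, with 41.2 CPM in Idoxuridine against 45.8 CPM in DMSO in the other cells. Its ratio was 0.56 in the set and -0.16 in the other cells. The remaining genes of the first group were Rpl39l (2.27 and 1.54), a relative of a ribosomal protein gene with close copies, the helicase-related gene Dqx1 (1.21 and 0.48), Pqlc3 (1.03 and 0.41), Snx30 (0.12 and -0.56) and Rtkn2 (0.41 and -0.21), each given for the set and for the other cells.

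Cyp1a1, an oxidase gene induced through the aryl hydrocarbon receptor, differed most in the other direction. It had 19.7 CPM (16.2 to 23.8) in Idoxuridine and 15.9 CPM (13.3 to 18.9) in DMSO within the set, with 32.6 CPM in Idoxuridine against 7.37 CPM in DMSO in the other cells. The ratios were 0.31 (-0.07 to 0.69) in the set and 2.14 (1.93 to 2.36) in the other cells, a difference of -1.83 (-2.27 to -1.40). A UMI was seen in 19.3% of Idoxuridine and 17.9% of DMSO cells of the set, and the 15 highest of the 147 Idoxuridine cells held 75% of its UMIs, so few cells carry this value. Lefty1 was lower by more in the set (-2.67) than in the other cells (-1.59), and the secreted protein gene Fstl1 had ratios of 0.36 in the set and 1.27 in the other cells. The others were Tdrd12 (-0.05 and 0.78), a gene of transposon silencing in germ cells, the troponin gene Tnni1 (-0.05 and 0.74), Phlda1 (2.10 and 2.88), the adhesion gene Cadm1 (-0.04 and 0.73) and Chm (-0.67 and 0.08).

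**Figure D3:**
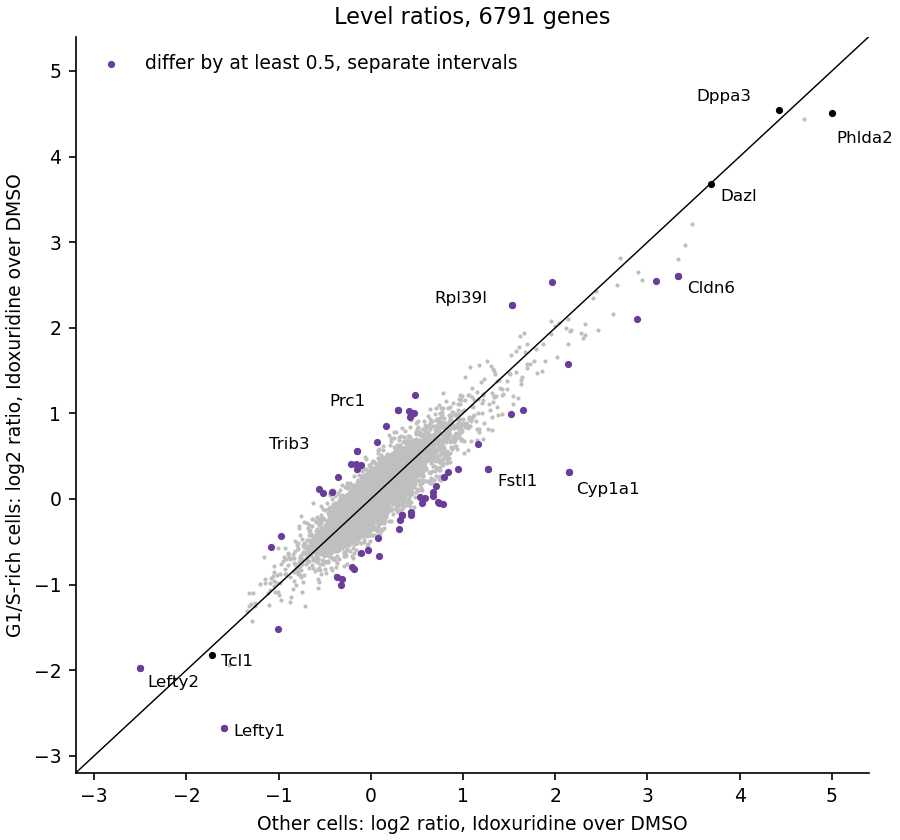
Log2 ratio of CPM, Idoxuridine over DMSO, in G1/S-rich cells (y axis) against the other cells (x axis) for 6791 genes (1 point a gene); the line marks equal ratios. Purple points are the genes whose ratios differ by at least 0.5 log2 with separate intervals, among them Prc1 above the line (1.03 in the set and 0.30 in the other cells) and Cyp1a1 below it (0.31 in the set and 2.14 in the other cells).

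Spread between cells was measured by the Fano factor, the variance of UMIs per cell divided by the mean, after each cell was brought to the common depth. A value of 1 is what counting alone gives. In the set 7261 genes had a mean of at least 0.25 UMIs per cell in both libraries at that depth. For 5158 genes (71%) Idoxuridine had the higher Fano factor, with medians of 1.15 in Idoxuridine and 1.08 in DMSO and a median log2 ratio of 0.10. It was at least 0.5 log2 higher for 338 genes (4.66%) and at least 0.5 log2 lower for 9 (0.124%). A log2 difference of 1 or more was seen for 52 genes upward and 0 downward, and 224 of the 338 genes had a level ratio within 0.5 log2.

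In the other cells 75.3% of 7301 genes had a higher Fano factor in Idoxuridine, 180 (2.47%) by at least 0.5 log2 and 13 (0.178%) lower by as much, with a median log2 ratio of 0.07. The set had 147 Idoxuridine and 191 DMSO cells, the other cells 501 and 573, and no Fano factor has an interval. Fano factors from fewer cells are less certain, so the counts past 0.5 log2 do not compare the size of the change. The same limit holds for single genes set against the other cells below. The Fano ratio was higher in the set than in the other cells for 54.2% of the 7104 genes measured in both, with a median difference of 0.02. The genome-wide tilt was thus nearly the same size in both, and Pearson's r between the Fano ratios across genes was 0.41, as a description. Without thinning, the share of genes with a higher Fano factor in the set was 50.7%. Leaving out the highest cell of each gene in each library, an alternative chosen after seeing the data, gave 67.5%.

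**Figure D4:**
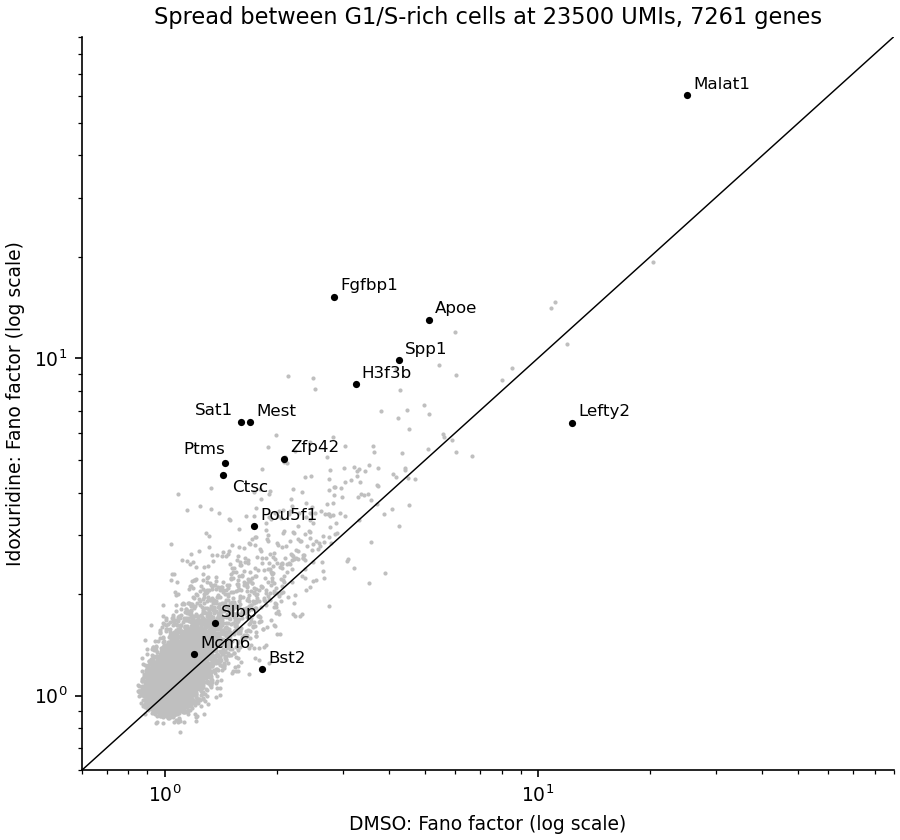
Fano factor of UMIs per cell at the common depth in Idoxuridine (y axis, log scale) against DMSO (x axis, log scale) for 7261 genes in G1/S-rich cells (1 point a gene); the line marks equality. More points lie above the line (71%) than below, and Fgfbp1 (15.2 in Idoxuridine and 2.85 in DMSO) and Sat1 (6.50 in Idoxuridine and 1.60 in DMSO) are among those furthest above.

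The selecting genes themselves varied little more in Idoxuridine, which is a description because the rule limits their spread. Their median log2 Fano ratio was 0.15, with 7 of 8 above 0. Mcm6 had Fano factors of 1.32 in Idoxuridine and 1.20 in DMSO, Mcm5 1.26 in Idoxuridine and 1.11 in DMSO, Cdt1 1.15 in each, and Slbp 1.64 in Idoxuridine and 1.36 in DMSO. Of other licensing and firing genes, 22 of 24 had a higher Fano factor in Idoxuridine, against 71% of all genes, with a median log2 ratio of 0.19. Mcm3 had 1.52 in Idoxuridine and 1.05 in DMSO (0.53), and it was the 1 member past 0.5. Rrm2 had 3.46 in Idoxuridine and 2.16 in DMSO (0.68, against 0.25 in the other cells), and 34.7% of Idoxuridine cells exceeded the 90th percentile of DMSO cells. The 4 measured histone genes went the other way, with a median of -0.15 and 0 of 4 higher in Idoxuridine.

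Naive pluripotency genes mostly varied more between Idoxuridine cells. Of 21 measured, 20 had a higher Fano factor in Idoxuridine and 12 by at least 0.5 log2, against 4.66% of all genes, with a median log2 ratio of 0.53 (0.42 in the other cells). Here and for the other lists, the genes behind the share of all genes were not matched to the list in mean count. The size of a Fano ratio depends on that mean. Zfp42 had Fano factors of 5.04 in Idoxuridine and 2.09 in DMSO (1.27). Its median was 15 UMIs per cell in Idoxuridine (0 to 48) and 21 in DMSO (6 to 41), and 40.8% of Idoxuridine cells lay below the 10th percentile of DMSO cells, 12 of them below the lowest DMSO cell. The wider spread therefore came with a tail toward low counts and with the ranges' upper ends close together. Spp1 had 9.89 in Idoxuridine and 4.25 in DMSO (1.22), and Fgfbp1, a secreted carrier of fibroblast growth factors, had 15.2 in Idoxuridine and 2.85 in DMSO (2.42) with a level ratio of 1.46.

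Of 17 general pluripotency genes, 16 had a higher Fano factor in Idoxuridine and 7 by at least 0.5 log2, with a median of 0.31. Pou5f1 had 3.17 in Idoxuridine and 1.73 in DMSO (0.87), Sox2 2.91 in Idoxuridine and 1.89 in DMSO (0.62), Nanog 2.32 in Idoxuridine and 1.56 in DMSO (0.58), and Tdgf1, a Nodal co-receptor gene, 6.99 in Idoxuridine and 3.8 in DMSO (0.88). Pou5f1 ranged over 12 to 72 UMIs per cell in Idoxuridine and 20 to 78 in DMSO, and 8 Idoxuridine cells lay below the lowest DMSO cell. Across cells of the set, Spearman's rho of Zfp42 with Pou5f1 was 0.45 in Idoxuridine (147 cells) and 0.18 in DMSO (191 cells), and of Zfp42 with Nanog 0.32 in Idoxuridine and -0.07 in DMSO. These pairs had the highest values in Idoxuridine among all pairs computed, and other pluripotency pairs were weaker. Nanog with Pou5f1 had 0.16 in Idoxuridine and -0.08 in DMSO. In Idoxuridine, Esrrb had 0.06 with Zfp42, 0.02 with Nanog and -0.0038 with Pou5f1. These are descriptions of cells that share a library.

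Among genes within 0.5 log2 in level, the 8 with the highest Fano ratios spread in different ways, some with a small group of cells at high counts, some through 1 cell, and some toward low counts. Sat1, which acetylates polyamines and is known as a stress-induced enzyme, had 211 CPM (199 to 223) in Idoxuridine and 178 CPM (169 to 187) in DMSO. Its Fano factors were 6.50 in Idoxuridine and 1.60 in DMSO, a log2 ratio of 2.02 (1.77 in the other cells). Its median was 3 UMIs per cell in Idoxuridine and 4 in DMSO, its maximum 35 in Idoxuridine and 12 in DMSO, and 11 Idoxuridine cells exceeded the highest DMSO cell. The 15 highest Idoxuridine cells held 39.3% of its UMIs, and the 20 highest DMSO cells held 23.4%.

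Ptms, a small acidic nuclear protein gene, had Fano factors of 4.91 in Idoxuridine and 1.46 in DMSO (1.75), with medians of 9 UMIs in Idoxuridine and 8 in DMSO, maxima of 55 in Idoxuridine and 17 in DMSO, and 15 Idoxuridine cells above the highest DMSO cell. Ctsc, a lysosomal protease gene, had 4.50 in Idoxuridine and 1.44 in DMSO (1.65), with medians of 1 UMI in Idoxuridine and 2 in DMSO and maxima of 20 in Idoxuridine and 9 in DMSO. Mest, an imprinted gene expressed from the paternal allele, had 6.48 in Idoxuridine and 1.70 in DMSO (1.93), but without its highest cell in each library the log2 ratio was 0.75, as 1 Idoxuridine cell held 61 UMIs. Rassf1, a tumour suppressor gene, had 3.56 in Idoxuridine and 1.15 in DMSO, and without its highest cell in each library the log2 ratio was -0.035. Mest overlaps Copg2 on the other strand, and Ptms, Ctsc and Rassf1 each overlap an unnamed or predicted transcript there.

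Apoe, a lipid carrier, had Fano factors of 13.0 in Idoxuridine and 5.11 in DMSO (1.35), with a median of 41 UMIs per cell (8 to 159) in Idoxuridine and 50 (15 to 102) in DMSO. Here 6 Idoxuridine cells lay above the highest and 6 below the lowest DMSO cell, so the cells spread on both sides. H3f3b, which encodes the replication-independent histone H3.3, had 8.39 in Idoxuridine and 3.25 in DMSO (1.37), against a log2 ratio of 0.20 in the other cells. Its level was 2170.5 CPM (2132 to 2210) in Idoxuridine and 1715 CPM (1687 to 1744) in DMSO, a ratio of 0.34 in the set and 0.07 in the other cells. Its median was 47 UMIs per cell in Idoxuridine and 40 in DMSO, and 35.4% of Idoxuridine cells exceeded the 90th percentile of DMSO cells.

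**Figure D5:**
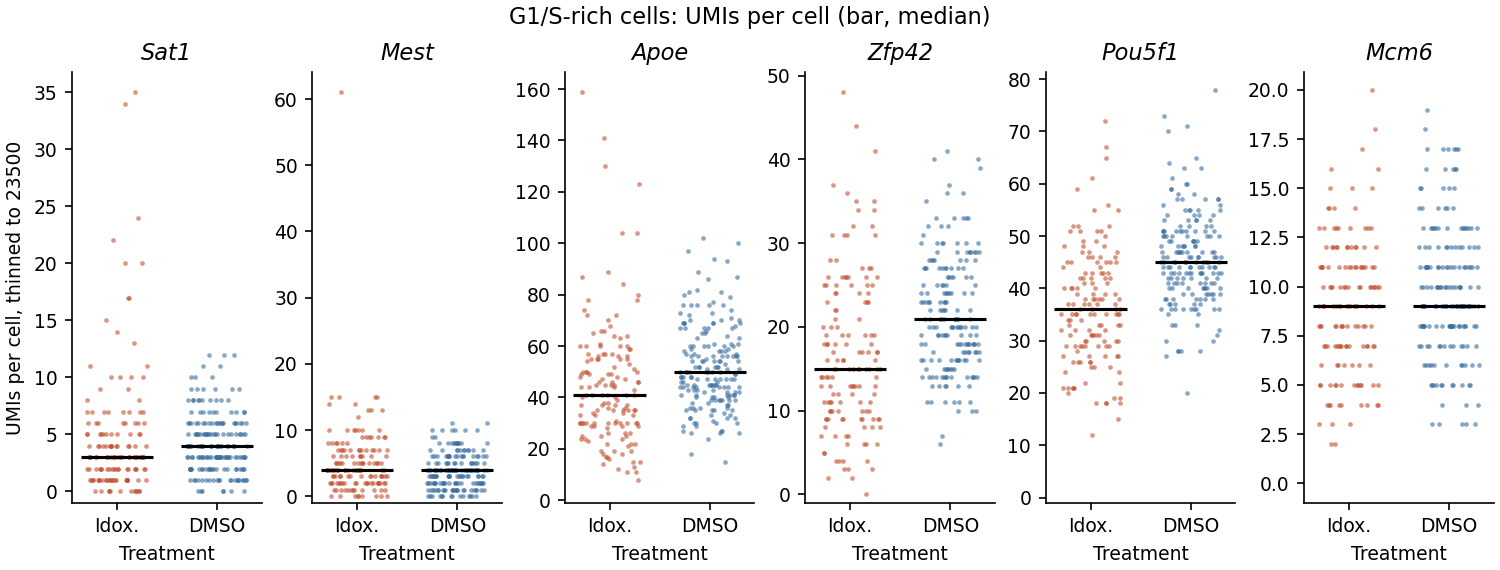
UMIs per cell after 1 random thinning to the common depth (y axes) for 6 genes in G1/S-rich Idoxuridine (left) and DMSO (right) cells; each point is a cell and the bar is the median. Sat1 has a maximum of 35 in Idoxuridine and 12 in DMSO, Zfp42 has a tail to 0 in Idoxuridine, and the Mcm6 cells overlap with a median of 9 in each.

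The genes with high Fano ratios were only weakly correlated with each other across cells. Among the 28 pairs of Sat1, Mest, Ptms, Ctsc, Rassf1, H3f3b, Apoe and Zfp42, Spearman's rho across cells had a median of -0.02 in Idoxuridine and 0.03 in DMSO, and the highest was 0.22 in Idoxuridine. The counts of these genes were also only weakly correlated with how G1/S-rich a cell was, with rho against the selecting share between -0.18 (Ctsc) and 0.13 (Zfp42) in Idoxuridine and between -0.14 (Sat1) and 0.09 (Mest) in DMSO over these 8 genes. Among other genes looked at, it was 0.26 for Spp1 and -0.22 for Esrrb in Idoxuridine, and -0.01 for Spp1 and 0.02 for Esrrb in DMSO. Weak correlations of this size in sparse counts are no finding.

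The p53 targets had a median log2 Fano ratio of 0.26 in the set and 0.01 in the other cells, with 22 of 29 (75.9%) higher in Idoxuridine, close to the 71% of all genes. Plk2 had 3.55 in Idoxuridine and 2.07 in DMSO (0.78, against -0.11 in the other cells), beside its level ratio of 1.19, and on the counting-corrected squared coefficient of variation its ratio was 0.13. Ei24, a death-associated membrane protein gene, had 2.08 in Idoxuridine and 1.19 in DMSO (0.80, against 0.01 in the other cells). The 6 measured immediate early genes had a median of 0.66 in the set and 0.20 in the other cells, with Klf6, a zinc finger factor gene, at 2.49 in Idoxuridine and 1.19 in DMSO (1.07). Malat1 had 60.3 in Idoxuridine and 25.2 in DMSO (1.26) and ranged over 3 to 521 UMIs per cell in Idoxuridine and 5 to 206 in DMSO, so Malat1 counts spread more widely among Idoxuridine cells, and the part of nuclear RNA in the spread of other genes was not tested.

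Fano factors lower in Idoxuridine by 0.5 log2 or more were few, as counted above. The lowest ratio was that of Lefty2, with 6.45 in Idoxuridine and 12.4 in DMSO (-0.94), beside its level ratio of -1.98. On the counting-corrected squared coefficient of variation the ratio of Lefty2 was 0.97, so its direction depends on the measure. Among genes within 0.5 log2 in level the lowest was that of Bst2. This interferon-inducible antiviral protein gene had 1.20 in Idoxuridine and 1.82 in DMSO (-0.60), with maxima of 7 UMIs per cell in Idoxuridine and 11 in DMSO. The protease inhibitor gene Spint2 had 1.84 in Idoxuridine and 2.76 in DMSO (-0.58), and Hmgxb4 1.16 in Idoxuridine and 1.68 in DMSO (-0.54). The next, B4gat1 (-0.53), Plekha5 (-0.53) and Rictor, a subunit of the mTORC2 complex just short of that fold (-0.50), had Fano factors under 1 in Idoxuridine, the level of counting alone. Of the list genes, Cdx2 had the lowest ratio, with 2.31 in Idoxuridine and 3.91 in DMSO (-0.76), beside a level ratio of 1.18.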

How the data were processed

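The authors deposited 1 matrix of UMI counts per library, raw whole-number counts per gene and cell, for 27998 genes. Per the submitters' processing notes the tools were Cell Ranger 2 and Seurat and the build mm10, with no role given for each. Per the labels' protocols the libraries are 10x 3′ V2, so counts come from transcript ends and free RNA and doublets can add UMIs. How barcodes were chosen was not given in the sources used here, and all 742 Idoxuridine and 811 DMSO barcodes were taken as cells. The libraries shared 2 barcodes. No doublet caller was run, and an alternative left out the cells above the 95th percentile of UMIs.

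UMIs were summed over cells and divided by the sum (CPM). Levels have exact Poisson intervals, ratios exact conditional binomial intervals, differences of ratios intervals combined from both, and shares Clopper-Pearson intervals, all at 95% and covering counting error only. Ratios against 0 UMIs used a floor of 3 counts over the group. Fano factors used expected hypergeometric thinning to the depth minimum of the rule, and per-cell counts, ranges and correlations used 1 seeded thinning. Cells are not replicates, and 1 library per treatment allows no test. TMM came from edgeR 4.0.16 in R 4.3.3, the rest from Python 3.11.15 with numpy 2.4.6, scipy 1.17.1 and pandas 2.3.3. Coordinates are GENCODE M21 on GRCm38 (98.7% of gene identifiers matched) and promoters RefSeq on GRCm38.p6.

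The members, the 28 gene lists (2 of 699 entries not found) and the alternatives were chosen with earlier results of these data known. The text names fixed genes of the cell cycle and pluripotency, the 10 highest and 10 lowest level ratios and the 8 largest differences from the other cells each way (at least 200 UMIs and intervals that do not overlap), the 8 highest and 8 lowest Fano ratios among genes within 0.5 log2 in level (mitochondrial and ribosomal protein genes left out), and up to 4 members of each list by level and 2 by Fano ratio. Some are left out for length, and a few genes are not reported here. The dose is 10 µM per the treatment label and 10 mM per the protocol.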

Additional observations from a re-analysis of the deposited data

Results flagged for a closer look

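Within the G1/S-rich cells 7 named genes had a level ratio of the opposite sign to that in the other cells, with separate counting intervals. The difference between the 2 sets of cells was not tested in any of them, since there is 1 library per treatment. Trib3 lay above DMSO in the set and below it in the other cells, a difference in log2 ratio of 0.72. Snx30 (0.68) and Rtkn2 (0.62) did the same, with counting intervals in the set of -0.29 to 0.52 and 0.00 to 0.82. Tdrd12 (-0.84), Tnni1 (-0.79), Cadm1 (-0.77) and Chm (-0.75) lay below DMSO in the set and above it in the other cells. The ratios of Tdrd12, Tnni1 and Cadm1 in the set were -0.05, -0.05 and -0.04, close to 0, and that of Chm was -0.67 (-1.07 to -0.27). Some of these genes rest on few UMIs in the set, such as 91 in Idoxuridine and 124 in DMSO for Snx30, and 77 in Idoxuridine and 181 in DMSO for Chm. The sign of Snx30 in the set also turned under TMM scaling. The ratio of Chm in the other cells, given above, was smaller in size than the TMM shift in the set, -0.15.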

How the results depend on the processing

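Of 88 named genes counted as higher or lower, 0 changed direction under the 21 alternatives that give a level ratio, and 72 were still counted with TMM scaling. Of these alternatives, 3 alter the count and not the ratio. Both other scalings and the total without mitochondrial, ribosomal protein and Malat1 UMIs move every ratio alike, by less than the fold of 0.5 log2. They could not reverse a counted gene, and the other alternatives draw on the same 2 libraries. The share of deep Idoxuridine cells in the set, 22.7%, was 28.7% at the 70th and 14.2% at the 85th percentile. The 667 higher genes became 385 at the 85th percentile, 401 with TMM, 396 with median-of-ratios scaling, 1865 with no minimum of UMIs, 222 with a minimum of 500 and 131 at a fold of 1 log2. The 328 lower genes became 687, 720, 195 and 29 with TMM, median-of-ratios scaling, the minimum of 500 and the fold of 1. The 59 genes whose ratio differed from the other cells became 38 with Slbp left out of the share, 128 with no minimum, 14 with the minimum of 500 and 2 at the fold of 1. The log2 ratio of the early G1/S sum in Idoxuridine, set over other cells, 0.46, was 0.43 with the share from thinned UMIs, 0.41 without Slbp, 0.43 without mitochondrial, ribosomal protein and Malat1 UMIs and 0.62 against cells under the 25th percentile. The 71% of genes with a higher Fano factor became 72.6% and 68.5% at the 70th and 85th percentiles, 72.2% without Slbp, 69.1% at 30000 UMIs, 76.3% at a minimum mean of 1, 50.7% unthinned, 72.2% with the counting-corrected squared coefficient of variation, and 67.5% without each gene's highest cell, an alternative chosen after seeing the data. The 54.2% with a higher Fano ratio than in the other cells became 56.1%, 55.7%, 57.1%, 57.6%, 56.4% and 51.6% at the 70th percentile, without Slbp, at a mean of 1, unthinned, against cells under the 25th percentile and without the highest cell. The primitive endoderm median was -0.0404 at the 85th percentile. Fano ratios that reversed were those of Rassf1 (-0.14 at the 85th percentile, -0.0651 at 30000 UMIs and -0.035 without its highest cell), unthinned Pou5f1 (-0.73), Gapdh (-0.68), Stmn2 (-0.64), Apoe (-0.0368), Mcm3 (-0.0361), Hsp90aa1 (-0.64), mt-Nd1 (-0.40) and Rpl8 (-0.51), and, with the squared coefficient of variation, RP23-4H17.3 (-0.52), Lefty2 (0.97) and Tex19.1 (-1.27). Unthinned values carry the unequal depth of the libraries, and the part of depth in these changes was not tested. For the other changes the cause was not tested either. No paired analysis was possible because there is 1 library per treatment. The minimum of 200 UMIs is a choice, and the levels of genes below it have wide intervals at this depth.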

Other observations

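The genes of the 2-cell-embryo-like state, a rare and transient condition of embryonic stem cells, were hardly counted in the set. A count of 0 UMIs does not show that a gene was silent. Of 13 listed genes 11 were found in the gene table, and 10 of them had 0 UMIs in both libraries. The exception was Gm5662, with 63 UMIs in Idoxuridine and 0 in DMSO, and a UMI in 6.80% of Idoxuridine cells at a common depth and a maximum of 14 per cell.

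Further from the cell cycle, several genes with large level ratios have separate roles. The small heat shock protein gene Cryab had 43.3 CPM (37.9 to 49.1) in Idoxuridine and 5.54 CPM (4.04 to 7.42) in DMSO, a log2 ratio of 2.96. The neuronal pentraxin gene Nptx2 had 71.0 CPM in Idoxuridine against 10.1 CPM in DMSO (log2 ratio 2.81), and the acyl-CoA thioesterase gene Acot1, which has near-identical relatives, 53.3 CPM in Idoxuridine against 7.64 CPM in DMSO (log2 ratio 2.80). On the lower side, the neuronal microtubule regulator gene Stmn2 had 216 CPM (204 to 229) in Idoxuridine and 515 CPM (499 to 531) in DMSO (-1.25), and the quinone reductase gene Nqo2 12.6 CPM in Idoxuridine against 31.3 CPM in DMSO (log2 ratio -1.31). All 5 had ratios of the same sign in the other cells, at 3.41, 2.71, 3.33, -1.26 and -1.34.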
